A study of Mus musculus with 32 samples.

Results

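Expression of 7 transcription factor genes of the myeloid lineages, Spi1, Cebpa, Cebpb, Cebpd, Cebpe, Irf8 and Gfi1, was followed across 8 sorted fractions of mouse bone marrow at 2 ages. The members were taken by symbol from the table of raw gene counts, so they were 7 of its 24421 genes, and all 7 passed the filter on low counts that left 14154 genes for testing. The fractions were hematopoietic stem cells (HSCs), the multipotent progenitors MPP1, MPP2, MPP3 and MPP4, and progenitors restricted to granulocytes and macrophages (GMPs), to megakaryocytes and erythrocytes (MEPs) or to lymphoid cells (CLPs). The mice were female C57BL/6, aged 10 weeks (Young) or 20 months (Aged), and each of the 16 groups had 2 libraries. Marrow was pooled before sorting in duplicate, while the study elsewhere calls its 2 HSC samples independent in a biological sense. The mice behind each duplicate are not named, so the p-values measure the spread between these libraries, which may be technical. In bulk libraries such as these, fewer cells of a type and less RNA per cell cannot be told apart.

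PU.1, the product of Spi1, is an ETS factor that binds purine-rich sites and is needed for granulocytes, macrophages, dendritic cells and B cells. The C/EBP proteins are basic leucine zipper factors that act as dimers. C/EBPα directs the step from multipotent cells to GMPs, C/EBPβ drives granulocyte production under stress, C/EBPδ responds to inflammatory signals and C/EBPε governs the late, secondary granule stage of neutrophils. IRF8, an interferon regulatory factor that often binds DNA together with PU.1, directs monocytes and dendritic cells and restrains neutrophils. GFI1 is a zinc finger repressor that favours neutrophils over monocytes and holds stem cells in quiescence.

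In GRCm38 (mm10), by the GENCODE M21 annotation, Spi1 (ENSMUSG00000002111.8) lies at chr2:91082390-91115756 on the plus strand, and Irf8 (ENSMUSG00000041515.10) at chr8:120736358-120756694 on the plus strand. Gfi1 (ENSMUSG00000029275.18) lies at chr5:107716657-107726036 on the minus strand and Cebpe (ENSMUSG00000052435.7) at chr14:54710360-54712174 on the minus strand. The other 3 C/EBP genes have 1 exon each. They are Cebpa (ENSMUSG00000034957.10) at chr7:35119293-35121928, Cebpb (ENSMUSG00000056501.3) at chr2:167688915-167690418 and Cebpd (ENSMUSG00000071637.5) at chr16:15887286-15891031, all on the plus strand. Minus-strand genes overlap Cebpb (Tmem189) and Cebpd (Spidr). Whether the counting used strand is not stated, so reads of such partners could not be told apart.

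The 250 bases before the start site are shown for 3 members whose age patterns are set apart further on, Cebpa with no age difference called, Irf8 with differences in both directions and Cebpb with libraries that disagree. The sequences are RefSeq's for GRCm38.p6, read 5′ to 3′ on the plus strand, at chr7:35119043-35119292 (Cebpa), chr8:120736108-120736357 (the first of 2 Irf8 starts in the table) and chr2:167688665-167688914 (Cebpb). Capitals mark matches to either of the motifs TATAAA (the TATA box) and TGACG (the core of the site for CREB and ATF factors).
Cebpa: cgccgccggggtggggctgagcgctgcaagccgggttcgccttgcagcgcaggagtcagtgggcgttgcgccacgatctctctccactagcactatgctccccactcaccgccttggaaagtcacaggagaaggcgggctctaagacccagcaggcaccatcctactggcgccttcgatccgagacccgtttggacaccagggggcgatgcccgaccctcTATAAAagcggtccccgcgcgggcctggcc
Irf8: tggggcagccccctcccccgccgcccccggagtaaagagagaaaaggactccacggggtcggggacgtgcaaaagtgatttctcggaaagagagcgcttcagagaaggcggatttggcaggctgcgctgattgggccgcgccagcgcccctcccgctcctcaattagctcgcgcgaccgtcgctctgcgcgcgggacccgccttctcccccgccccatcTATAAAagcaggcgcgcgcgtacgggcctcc
Cebpb: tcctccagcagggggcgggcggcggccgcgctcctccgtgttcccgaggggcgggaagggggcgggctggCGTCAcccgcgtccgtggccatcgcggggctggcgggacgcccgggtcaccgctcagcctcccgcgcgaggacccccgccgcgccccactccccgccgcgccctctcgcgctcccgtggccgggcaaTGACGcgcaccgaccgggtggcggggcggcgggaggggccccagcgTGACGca
TATAAA was found once in the Cebpa window, with its first base 30 bases before the start site, and once in the Irf8 window, 31 bases before it. TGACG was found 3 times in the Cebpb window, 53 and 7 bases before the start on the plus strand and, as its complement CGTCA, 180 bases before it. Over the 32851 windows of 250 bases in the same RefSeq table, which holds several start sites for some genes, 12.4% held TATAAA and 17.8% held TGACG on either strand. Neither TTGCNNAA (a C/EBP site) nor GAGGAA (a PU.1 core) was in these 3 windows, and they were found in 9.56% and 23.3% of all windows. The interferon response element, searched as 2 copies of GAAA with any 2 bases between, was in none of the 3 and in 2.98% of all. The window before the second Irf8 start (chr8:120738389-120738638, plus strand, not printed) held none of these 5 motifs. No 2 of the motifs overlapped in the windows printed. A match is a description of the letters and not of binding.

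Total counts were 11237384 to 17723245 per library, with a median of 13489609.5. Levels are given as CPM, the count scaled to the TMM-normalized total of its library, for each of the 2 libraries of a group. A count of 0 allows up to 3 counts, or 0.186 to 0.281 CPM by library (counting error only). Primary granule, erythroid and B lineage genes had their highest sums in GMPs, MEPs and CLPs. The 8 primary granule genes summed to 92910 to 94649 CPM in GMPs, the 10 erythroid genes to 12879 to 13820 CPM in MEPs and the 8 B lineage genes to 1677 to 3043 CPM in CLPs. Megakaryocyte markers were low in MEPs (124 and 139 CPM young, 70.5 and 74.1 CPM aged) beside HSCs (1597 and 1546 CPM young). In aged CLPs plasmacytoid dendritic cell markers (6119 and 4122 CPM) summed to more than B lineage markers (1729 and 1677 CPM). HSCs and MPPs were not checked by a list of their own. Some fractions also held markers of other cells that moved with age. Of 11 macrophage markers, from 3 (HSCs) to 11 (CLPs) were lower in aged cells of each fraction and 0 were higher. The young MEPs carried B lineage transcripts that the aged MEPs all but lacked. Those values stand beside the members they moved with, and their part in the results was not tested. 2 libraries stood apart from their duplicates in the level of Cebpb, Aged HSC replicate 1 and Young MPP2 replicate 1.

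Outside Cebpb in aged cells and Irf8, the members were at their highest mean level in GMPs at both ages, and MEPs stood lowest for Spi1, Cebpa and Gfi1 at both ages. Spi1 was at 505 and 464 CPM in young and 481 and 491 CPM in aged GMPs, against 196 and 209 CPM in young and 181 and 188 CPM in aged MPP4, the next fraction down. From MPP1, MPP2 and CLPs to HSCs, the mean Spi1 level in young cells lay between 116 (HSC) and 132 CPM (MPP1), and no neighbours in that stretch differed beyond their spread. Young MEPs were far below at 16.5 and 13.8 CPM.
Cebpa descended in steps, from 104 CPM in young GMPs through 45.9 in MPP4, 39.8 in MPP3, 19.9 in MPP2, 13.4 in CLPs, 7.77 in MPP1 and 3.61 in HSCs to 1.20 CPM in MEPs. The order was the same in aged cells, and neighbours did not differ beyond their spread for MPP4 and MPP3 at both ages (adjusted p = 0.528 and 0.335) and for aged CLPs and MPP1 (adjusted p = 0.05005).
Irf8 stood at 3168 and 3266 CPM in young CLPs and 1105 and 1102 CPM in young GMPs, and every other young fraction was at or below 72.7 CPM on average (MPP3). Irf8 in young MPP3 and MPP4 did not differ beyond its spread (adjusted p = 0.947), and the lowest young levels were in HSCs (13.03 and 17.8 CPM) and MPP1 (10.7 and 10.7 CPM). Besides monocytes, dendritic cell and B cell precursors use IRF8.

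Gfi1 followed the order GMP (151 and 132 CPM), MPP4 (55.2 and 56.5 CPM), MPP3 (43.3 and 34.9 CPM) and HSC (25.6 and 32.4 CPM) in young cells, with CLPs, MPP1 and MPP2 close together at 17.1 to 21.3 CPM and MEPs at 4.87 and 2.80 CPM. Among its young neighbours the steps from GMP to MPP4 and from MPP2 to MEP were beyond the spread, and the 5 steps between were not (adjusted p of 0.0499 to 0.725).
Cebpe was at 87.5 and 84.2 CPM in young GMPs and at 7.15 and 6.27 CPM in MPP3, while HSCs, MPP1, MPP4 and MEPs each averaged under 1 CPM at both ages, near the floor of these libraries. Cebpd also stood high in GMPs (176 and 176 CPM), and in the other young fractions it averaged 7.06 (MPP1) to 18.03 CPM (CLP). Cebpb was high in more fractions, at 308 CPM in young GMPs, 271 in MPP4, 249.6 in HSCs, 179 in MPP1 and 149 in MPP3 on average. It was at 28.1 in young CLPs and 27.4 CPM in young MEPs. No neighbours in its order differed beyond their spread at either age in the fit of all 32 libraries.

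Over the 28 pairs of fractions at each age, the number of pairs that differed (adjusted p under 0.01) was 27 young and 26 aged for Cebpa, 25 and 26 for Irf8, 21 and 23 for Spi1, 21 and 21 for Gfi1, 19 and 12 for Cebpe, 18 and 18 for Cebpd and 11 and 10 for Cebpb. Over all genes tested, 42.4% of such pair tests were called in young and 40.8% in aged cells, so 11 and 10 of 28 for Cebpb and 12 of 28 for aged Cebpe were near the background and the other counts were above it. Per kilobase of transcript, which allows levels of different genes to be compared, young GMPs held Irf8 at 388, Spi1 at 238 and Cebpb at 205 CPM per kb, ahead of Cebpe at 69.2, Gfi1 at 49.5, Cebpd at 46.99 and Cebpa at 39.7. In CLPs Irf8 reached 1130.1 CPM per kb in young and 1656 in aged cells.

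**Figure D1:**
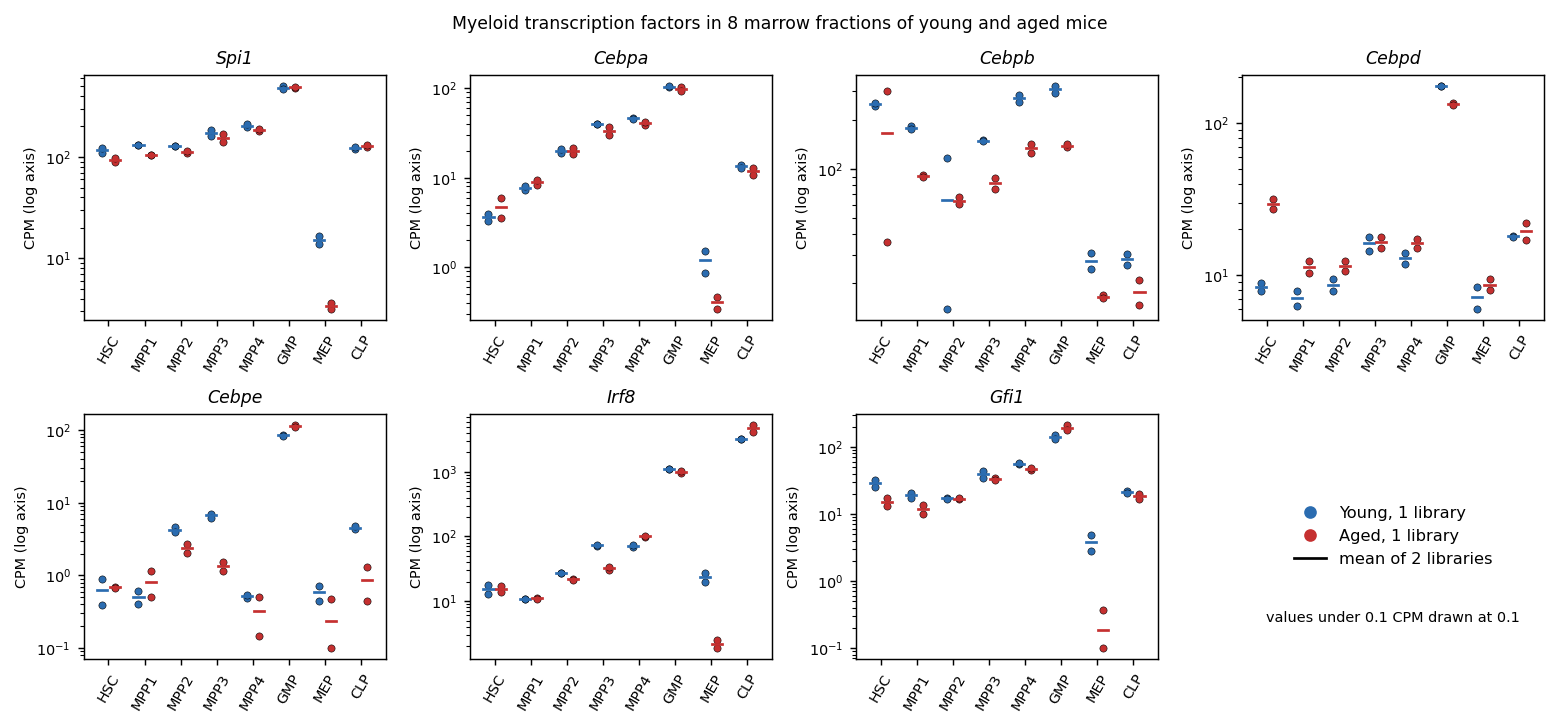
Level of each member (CPM, log axis) in the 8 fractions, one panel per gene, with 1 point per library, Young in blue and Aged in red, and a bar at the mean of 2 libraries. GMPs hold the top level of most members, Irf8 peaks in CLPs at 3217 CPM (Young) and 4713 CPM (Aged), and the 2 discordant Cebpb libraries lie far below their duplicates.

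The age comparison asked, in each fraction, whether the level of a member differed between aged and young cells (log2 fold change, Aged minus Young, edgeR quasi-likelihood F-test with Benjamini-Hochberg adjustment over all genes tested, called at an adjusted p under 0.01). Of 56 tests, 8 for each of 7 members, 10 were called, 3 higher and 7 lower in aged cells, while 12.6% of such tests were called over all genes, so the number of calls was near the background. The calls were unevenly spread. In HSCs 2 members were called (all genes 5.40%), in MPP3 2 (13.9%), in MPP4 1 (16.6%), in MEPs 3 (20.8%) and in CLPs 2 (10.4%), and in MPP1 (6.80%), MPP2 (7.81%) and GMPs (18.9%) none was called. At an unadjusted p under 0.05, 3 members passed in MPP1 (all genes 25.1%), 4 in MPP2 (27.6%) and 2 in GMPs (39.1%). DESeq2's Wald test called 3 members in MPP1 (1667 of 12782 genes), 1 in MPP2 (1888 of 12782 genes; 13.9% over both fractions) and 0 in GMPs (all genes 26.6%). In MEPs the median change of the 7 members was -1.57 on the log2 scale, and that of all genes was 0. A test of whether the age difference itself varied over the 8 fractions called 5 members, Irf8 (adjusted p = 1.07e-09), Spi1 (5.25e-08), Cebpd (6.89e-06), Gfi1 (4.49e-05) and Cebpe (1.97e-04), against 34.9% of all genes, and did not call Cebpa (0.0492) or Cebpb (0.961). Where one fraction is set against the mean of the other 7 in the following, 8.61% of such tests were called over all genes.

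**Figure D2:**
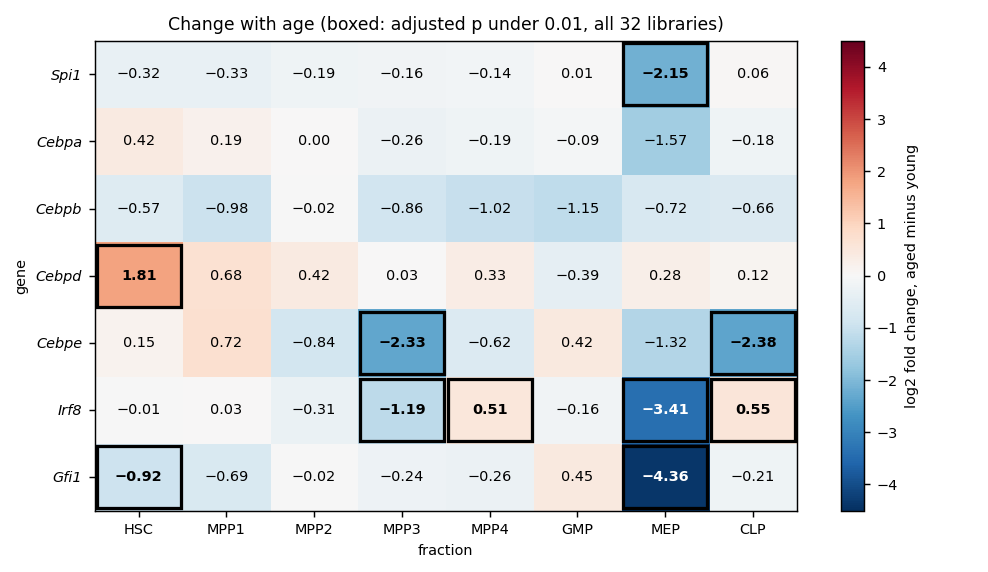
Heat map of the log2 fold change (Aged minus Young) of each member in each fraction. The value is printed in each cell, boxed and bold where the adjusted p is under 0.01. Spi1, Irf8 and Gfi1 drop far below 0 in MEPs (-2.15, -3.41 and -4.36), Cebpd rises in HSCs (1.81), and no cell of Cebpb is boxed.

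Spi1, encoding PU.1, was lower in aged MEPs and was not called in any other single fraction in the fit of all 32 libraries. Its level was 16.5 and 13.8 CPM in the young and 3.19 and 3.61 CPM in the aged MEP libraries (257 and 192 against 34 and 42 counts), so the groups did not overlap. The log2 fold change was -2.15 ± 0.13 SE, adjusted p = 7.58e-11. The change in MEPs differed from the mean change of the other 7 fractions by -1.996 ± 0.14 (SE, adjusted p = 6.01e-10). GMPs and CLPs, whose own changes were 0.01 and 0.06, lay above the mean of the other 7 (by 0.47, adjusted p = 4.70e-04, and by 0.53, adjusted p = 1.68e-04), a mean that holds the MEP change. In HSCs the level was 109.7 and 123 CPM young and 89.8 and 96.7 CPM aged (-0.32 ± 0.09 SE, adjusted p = 0.0190), and in MPP1 131 and 132 CPM in young and 104 and 106 CPM in aged libraries (-0.33 ± 0.09 SE, adjusted p = 0.0122). The aged libraries lay below the young ones in both of these fractions without passing the threshold. A fit on the 4 libraries of each fraction did call Spi1 in MPP1 (adjusted p = 0.00184), where 11.0% of such tests were called over all genes and fractions. DESeq2's Wald test called Spi1 in 3 fractions (19.3% of such tests over all genes). Averaged over MPP1 to MPP4, Spi1 was lower in aged cells by a small amount (-0.21 ± 0.04, SE, adjusted p = 3.76e-04). The mean change over these 4 fractions was called for 36.7% of all genes.

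The MEP libraries differed with age in more than Spi1. All 8 primary granule genes, among them Prtn3 (proteinase 3) and Ctsg (cathepsin G), were lower in aged MEPs, with a median change of -2.03 on the log2 scale against 0 for all genes, and their sum was 334 and 311 CPM in young against 126 and 41.5 CPM in aged libraries. Of the 13 monocyte and dendritic cell genes tested 8 were lower and 0 higher, with sums of 233 and 221 against 147 and 147 CPM. B lineage markers summed to 229 and 219.7 CPM in young and 2.44 and 2.75 CPM in aged MEPs, with 8 of 8 lower. Cd79a, Igll1, Rag1 and Rag2 had no count in either aged library. Macrophage markers summed to 20.9 and 15.9 against 0.843 and 1.72 CPM, with 6 of 11 lower and C1qa, C1qb, Fcna and Hmox1 at 0 in both aged libraries. The erythroid sum was close, at 13820.3 and 13616 CPM in young and 13399 and 12879 CPM in aged libraries (2 of 10 lower). Marker transcripts of B cells, granulocytes and macrophages were thus lower in the same libraries as the members, and their part in the MEP results was not tested.

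Irf8 was the member with the most calls, lower in aged MPP3 and MEPs and higher in aged MPP4 and CLPs. In MEPs it was at 19.6 and 27.3 CPM in young and 1.87 and 2.50 CPM in aged libraries (306 and 380 against 20 and 29 counts; -3.41 ± 0.19 SE, adjusted p = 2.37e-11). The 2 groups were far apart, and the difference to the mean of the other 7 fractions was -3.33 ± 0.20 (SE, adjusted p = 8.67e-11). In the same MEP libraries Irf5, a relative of Irf8 that acts downstream of Toll-like receptors, was also lower (8.14 CPM young, 0.301 CPM aged, log2 fold change -4.66, adjusted p = 2.87e-08). Ly86 and Ms4a6c, both expressed in macrophages and dendritic cells, had no count in either aged MEP library.

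In MPP3, the myeloid-biased multipotent fraction, Irf8 was at 71.2 and 74.2 CPM in young and 30.7 and 33.2 CPM in aged libraries (-1.19 ± 0.13 SE, adjusted p = 2.19e-06). Both aged libraries lay below both young ones, and the change differed from the mean of the other 7 fractions by -0.79 ± 0.14 (SE, adjusted p = 0.00150). Monocyte and dendritic cell genes moved the same way in these libraries, 8 of 13 lower and 0 higher, and summed to 717 and 752 CPM in young and 482 and 476 CPM in aged MPP3. Ly86 was at 9.52 and 2.60 CPM (change -1.87 on the log2 scale, adjusted p = 4.28e-06) and Irf5 at 48.4 and 28.8 CPM (-0.75, adjusted p = 0.00284). Macrophage markers were lower for 9 of 11 (sums of 200.2 and 216 against 57.9 and 63.2 CPM), and erythroid markers for 8 of 10 with 1 higher (sums of 1815 and 1963 against 900.5 and 929 CPM). Whether other cells in the young MPP3 sort carried part of the Irf8 signal was not tested.

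In MPP4, the lymphoid-primed fraction, Irf8 was 68.8 and 72.4 CPM in young and 98.96 and 102 CPM in aged libraries, with a log2 fold change of 0.51 ± 0.13 SE, adjusted p = 0.00457. The gap was wider than that between duplicates, but the call rested on each of the 4 libraries. Leaving out any 1 of them (Young MPP4 replicate 1 or 2, Aged MPP4 replicate 1 or 2) gave adjusted p = 0.0141 to 0.0501 with the change at 0.47 to 0.54. Set against the mean of the other 7 fractions, the change in MPP4 was 1.15 ± 0.14 (SE) higher (adjusted p = 1.68e-05). That mean, -0.64, holds the MEP change of -3.41. The direction in MPP4 was thus opposite to that in MPP3, and over the 4 MPP fractions together Irf8 was slightly lower with age (-0.24 ± 0.07, SE, adjusted p = 0.00696). Markers of other cells also moved in the MPP4 libraries. Macrophage markers were lower for 8 of 11 (sums of 103 and 114 against 25.7 and 26.1 CPM) and megakaryocyte markers for 2 of 7 (302 and 316 against 137 and 135 CPM). Of the 10 erythroid markers 3 were lower and 1 higher (1112 and 1345 against 619 and 747 CPM), and 4 of 8 primary granule genes were higher (1161 and 1285 against 1378 and 1429 CPM). Plasmacytoid markers were lower for 2 of 6, with sums of 226 and 242 CPM in young and 256 and 270.0 CPM in aged libraries. The part of these cells in the Irf8 result was not tested.

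In CLPs Irf8 was at 3168 and 3266 CPM in young and 5307 and 4119.6 CPM in aged libraries (0.55 ± 0.12 SE, adjusted p = 0.00273), so both aged libraries were above both young ones while the aged duplicates were themselves far apart. The call was lost without Young CLP replicate 1, Young CLP replicate 2 or Aged CLP replicate 1 (adjusted p of 0.0172 to 0.0843) and in a fit on the 4 CLP libraries alone (adjusted p = 0.0420). Against the mean of the other 7 fractions the CLP change was 1.20 ± 0.13 (SE) higher (adjusted p = 1.19e-06). That mean, -0.65, also holds the MEP change. Markers of plasmacytoid dendritic cells, which depend on Tcf4 and express Irf8, rose in the same libraries for 5 of 6 (median change 1.27 on the log2 scale, all genes 0). Their sum was 2324 and 2303 CPM in young and 6119 and 4122 CPM in aged CLPs. Among them the chemokine receptor gene Ccr9 went from 242 to 629.8 CPM (change 1.38 on the log2 scale, adjusted p = 1.34e-04) and Tcf4 itself from 462 to 770.5 CPM (0.74, adjusted p = 1.51e-05). The library with the higher Irf8 level, Aged CLP replicate 1, also had the higher plasmacytoid sum. B lineage markers fell for 5 of 8, with sums of 2995 and 3043 against 1729 and 1677 CPM, and the part of either cell type in the Irf8 result was not tested.

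Irf8 in the remaining fractions was close between ages, at 13.03 and 17.8 CPM in young and 13.9 and 16.9 CPM in aged HSCs, 10.7 and 10.7 CPM in young and 11.1 and 10.8 CPM in aged libraries in MPP1, 27.1 and 26.8 CPM in young and 22.3 and 21.3 CPM in aged libraries in MPP2 and 1105 and 1102 CPM in young and 970.4 and 1012 CPM in aged libraries in GMPs. None of these was called (adjusted p of 0.145 in MPP2, 0.374 in GMPs, 0.959 in MPP1 and 1 in HSCs).

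**Figure D3:**
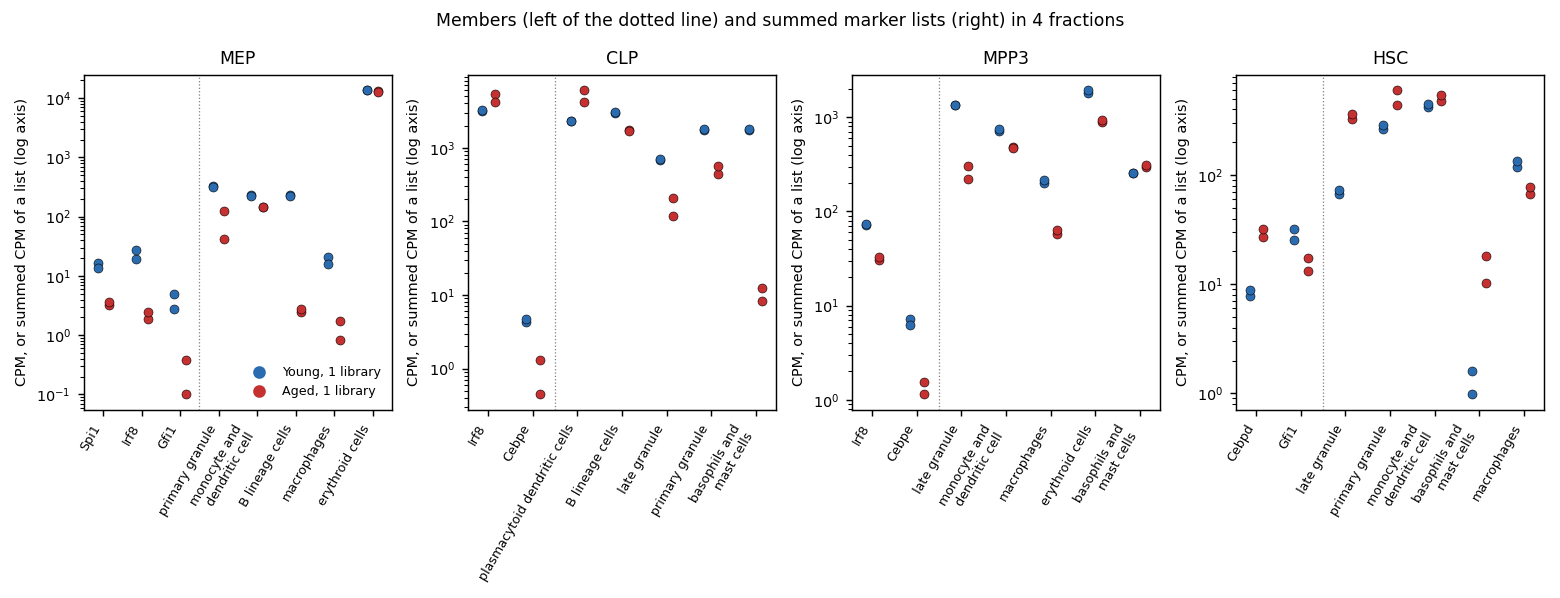
Members called with age and the summed level of marker lists (CPM, log axis) in MEPs, CLPs, MPP3 and HSCs, with 1 point per library, Young in blue and Aged in red, and the aged MEP library without a Gfi1 count at the lowest point of its panel. Granule and B lineage sums fall with Spi1, Irf8 and Gfi1 in MEPs, the plasmacytoid sum rises with Irf8 in CLPs, and late granule sums fall with Cebpe in MPP3 and CLPs but rise in HSCs.

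Gfi1, the neutrophil-promoting repressor, was lower in aged HSCs and aged MEPs. In HSCs the level was 25.6 and 32.4 CPM in young and 13.2 and 17.4 CPM in aged libraries (-0.92 ± 0.20 SE, adjusted p = 0.00398), so the groups did not overlap. This call was lost without Young HSC replicate 2 (adjusted p = 0.0576) or Aged HSC replicate 1 (0.0363), and in a fit on the 4 HSC libraries (0.0303), with the change at -1.15 to -0.78 when 1 library was left out. The HSC change did not differ beyond its spread from the mean of the other 7 fractions (-0.16 ± 0.26 SE, adjusted p = 0.936), which holds the MEP change. In MPP1 Gfi1 was at 20.5 and 17.4 CPM young and 9.86 and 13.5 CPM aged (-0.69 ± 0.21 SE, adjusted p = 0.0291). That was short of the threshold, but a fit on the 4 MPP1 libraries called it (adjusted p = 0.00964). In MEPs Gfi1 was at 4.87 and 2.80 CPM in young and 0.375 and 0 CPM in aged libraries, from 76 and 39 against 4 and 0 counts (-4.36 ± 0.56 SE, adjusted p = 4.58e-06). The ratio of young to aged counts, scaled for depth, was 21.7 (95% exact interval 8.24 to 80.9, counting error only). In a fit on the 4 MEP libraries the adjusted p was 0.0243. The MEP change differed from the mean of the other fractions by -4.09 ± 0.58 (SE, adjusted p = 2.14e-05), in the same libraries whose granule and B lineage sums fell.

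In GMPs, where it was most expressed, Gfi1 had 151 and 132 CPM in young and 212 and 175 CPM in aged libraries, which did not overlap but did not pass the test (0.45 ± 0.18 SE, adjusted p = 0.0574). Set against the mean of the other 7 fractions, the GMP change was 1.41 ± 0.21 (SE) higher (adjusted p = 3.79e-05), a mean that again holds the MEP change. For Gfi1 both aged libraries lay below both young ones in 6 of the 8 fractions, in GMPs above, and in MPP2 they overlapped (17.2 and 16.97 CPM young, 16.4 and 17.3 CPM aged). Over all genes and fractions both aged libraries lay below both young ones in 30.6% of cases and above them in 29.5%. Its paralogue Gfi1b, a repressor of the erythroid and megakaryocytic lineages, was lower in aged MPP2, MPP3, MPP4 and GMPs, with log2 fold changes of -0.66, -1.01, -1.07 and -1.92, where Gfi1 was not called.

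Cebpd, the inflammation-responsive C/EBP gene, was higher in aged HSCs. Both aged libraries (27.1 and 31.95 CPM) were above both young ones (7.85 and 8.93 CPM), with 97 and 137 counts young and 347 and 477 counts aged (1.81 ± 0.17 SE, adjusted p = 2.64e-07). The HSC change exceeded the mean of the other 7 fractions by 1.60 ± 0.18 (SE, adjusted p = 6.36e-06), and in aged cells HSCs took the second place after GMPs, from the sixth in young cells, where they did not differ beyond their spread from MPP2 or MEPs. Spidr, the gene on the opposite strand, stood at 38.6 and 33.7 CPM in young and 41.0 and 35.8 CPM in aged HSCs and did not show this change. In MPP1 Cebpd was at 6.28 and 7.84 CPM young and 12.4 and 10.4 CPM aged (0.68 ± 0.18 SE, adjusted p = 0.0136), short of the threshold, and over MPP1 to MPP4 together it was higher by 0.37 ± 0.09 (SE, adjusted p = 0.00130). In GMPs the aged libraries (136 and 133 CPM) lay below the young ones (176 and 176 CPM) without passing the test (-0.39 ± 0.14 SE, adjusted p = 0.0434). The GMP change differed from the mean of the others, which holds the HSC change, by -0.91 ± 0.16 (SE, adjusted p = 1.44e-04).

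Late granule genes, which neutrophils make as they mature, were higher for 8 of 13 in the same aged HSCs and 0 were lower (median change 2.23 on the log2 scale, all genes 0.02), with sums of 67.7 and 72.7 CPM in young and 326 and 362 CPM in aged libraries. Chil3 (chitinase-like 3) went from 2.08 to 20.8 CPM (change 3.35 on the log2 scale, adjusted p = 3.19e-08) and Camp (cathelicidin) from 4.65 to 35.5 CPM (2.93, adjusted p = 2.93e-06). Primary granule genes were higher for 3 of 8, Prtn3 (146 to 385 CPM), Serpinb1a and Nkg7, while the median change of the 8 was -0.51 on the log2 scale. Their sums, of 265 and 288 CPM in young and 439.9 and 605 CPM in aged HSCs, were mostly Prtn3 in the aged libraries. Mpo (myeloperoxidase) was at 61.6 CPM young and 47.3 CPM aged and Elane (neutrophil elastase) at 17.2 and 7.45 CPM, and neither was called. Basophil and mast cell markers were higher for 4 of 7, from sums of 1.62 and 0.978 to 10.3 and 18.2 CPM. Csf3r, the G-CSF receptor and a target of C/EBP and PU.1, was higher in aged HSCs (58.98 CPM young, 133 CPM aged, log2 fold change 1.17, adjusted p = 1.14e-07). The HSC gate was lineage-negative (Gr-1, which marks granulocytes, among the antigens), c-Kit+, Sca-1+, CD34-, CD150+ and CD48-. The part of other cells in the HSC result was not tested.

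Cebpe, the late neutrophil factor, was lower in aged MPP3 and CLPs. In MPP3 it was at 7.15 and 6.27 CPM in young and 1.14 and 1.53 CPM in aged libraries (103 and 81 against 17 and 21 counts; -2.33 ± 0.36 SE, adjusted p = 7.65e-05), and in CLPs at 4.35 and 4.78 CPM in young and 1.31 and 0.446 CPM in aged libraries (53 and 59 against 17 and 6 counts; -2.38 ± 0.41 SE, adjusted p = 3.19e-04). Neither pair of groups overlapped, and the ratios of young to aged counts scaled for depth were 5.08 (95% exact interval 3.57 to 7.41) and 5.25 (3.33 to 8.61), counting error only. In a fit on the 4 CLP libraries the adjusted p was 0.0389, above the threshold. In GMPs, where Cebpe was highest, the aged libraries (119 and 112 CPM) lay above the young ones (87.5 and 84.2 CPM) without passing the test (0.42 ± 0.25 SE, adjusted p = 0.214). Against the mean of the other fractions the GMP change was higher by 1.37 (adjusted p = 0.00296) and the CLP change differed by -1.83 (adjusted p = 0.00632). The MPP3 change differed by -1.78 ± 0.43 (SE, adjusted p = 0.0121) and was not called. The mean set against GMPs holds the MPP3 and CLP changes.

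The late granule genes, among them known targets of C/EBPε, moved with Cebpe in both fractions. Their level did not follow that of Cebpe across fractions. Their sum was 424 and 418 CPM in young GMPs, where Cebpe was highest, below that in young MPP3. In MPP3, 11 of 13 were lower and 0 higher (median change -2.36 on the log2 scale, all genes -0.04), with sums of 1344 and 1350.4 CPM in young and 224 and 301 CPM in aged libraries, and Ngp (neutrophilic granule protein) went from 436 to 84.8 CPM (change -2.36 on the log2 scale, adjusted p = 1.27e-06). In CLPs, 10 of 13 were lower and 0 higher, with sums of 686 and 707 against 209 and 116 CPM, and S100a8, a calcium-binding alarmin of neutrophils, went from 81.3 to 17.2 CPM (-2.24, adjusted p = 3.78e-05). Primary granule genes were lower for 6 of 8 in CLPs (1731 and 1775 against 434 and 573 CPM), and none was called in MPP3. All 7 basophil and mast cell markers were lower in aged CLPs, from sums of 1750.1 and 1798 CPM to 8.26 and 12.3 CPM. The basophil protease Prss34, at 1295 CPM in young CLPs, had no count in either aged library, as Cd200r3 had none. The lineage antibodies of the CLP stain, as the study describes it, were those of the other sorts without the one against the IL-7 receptor. What share of the Cebpe and granule values came from other cells was not tested.

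In MPP2 the same late granule genes were lower for 8 of 13, Camp from 64.2 to 20.1 CPM (change -1.68 on the log2 scale, adjusted p = 4.11e-04), while Cebpe was 4.61 and 3.94 CPM in young and 2.04 and 2.73 CPM in aged libraries and did not pass the test (-0.84 ± 0.34 SE, adjusted p = 0.107). GMPs had 5 late granule genes lower and 1 higher of 13 beside a Cebpe level that was not called. In HSCs, where 8 of the 13 were higher and 0 lower, Cebpe was not called either (0.15 ± 0.59 SE, adjusted p = 0.943). In MEPs 1 late granule gene was higher and 1 lower, and in MPP1 and MPP4 0 were called.

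Cebpa, which governs entry into the GMP stage, was not called in any fraction. In GMPs it stood at 102 and 107 CPM in young and 102 and 93.95 CPM in aged libraries (-0.09 ± 0.14 SE, adjusted p = 0.732), and in MPP3 at 40.1 and 39.4 CPM in young and 36.6 and 29.7 CPM in aged libraries (-0.26 ± 0.15 SE, adjusted p = 0.225). The 95% interval of its change in GMPs was -0.38 to 0.21 on the log2 scale. The nearest to a call was MEPs, with 24 and 12 counts in young and 5 and 4 in aged libraries (-1.57 ± 0.45 SE, adjusted p = 0.0105), a ratio of 3.02 after scaling for depth (95% exact interval 1.43 to 7.12, counting error only). Over MPP1 to MPP4 the mean change was -0.06 ± 0.08 (SE, adjusted p = 0.561). The same mean was -0.77 ± 0.27 for Cebpe (adjusted p = 0.0212), -0.30 ± 0.10 for Gfi1 (0.0134) and -0.72 ± 0.31 for Cebpb (0.0578), none of them called.

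Cebpb, the stress granulopoiesis factor, lay lower in every aged library of 6 fractions, but whether it was called depended on how 2 other libraries were treated. In MPP1 it was at 184 and 175 CPM young and 92.4 and 89.99 CPM aged, in MPP3 at 149.9 and 148 CPM in young and 88.01 and 75.7 CPM in aged libraries, and in MPP4 at 285 and 257 CPM in young and 125 and 142 CPM in aged libraries. In GMPs the values were 323 and 293 CPM young and 136 and 142 CPM aged, in MEPs 24.3 and 30.5 CPM in young and 16.96 and 16.2 CPM in aged libraries and in CLPs 25.96 and 30.1 CPM in young and 20.8 and 14.7 CPM in aged libraries. In these 6 fractions every aged library lay below every young one, which held for 30.6% of cases over all genes and fractions, and the fit of all 32 libraries called none of them. HSCs had 244 and 255 CPM young and 35.8 and 298 CPM aged (458 and 4456 counts), and MPP2 13.98 and 116 CPM young (188 and 1650 counts) and 61.1 and 67.2 CPM aged.

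The duplicates of aged HSCs thus differed 8.34-fold and those of young MPP2 8.31-fold, against 1.01- to 1.42-fold in the other 14 groups. Among genes at a mean of 50 CPM or more, Cebpb had the largest gap between the aged HSC duplicates (of 4701 genes) and the second largest between the young MPP2 duplicates (of 4798). Tmem189, which overlaps Cebpb on the other strand, had 583 and 870 counts in aged HSCs and 617 and 666 in young MPP2 and showed no such gap. Nothing in the labels sets these 2 libraries apart.

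With all 32 libraries in 1 fit, this spread entered the error of every fraction. The changes were -0.57 (HSC), -0.98 (MPP1), -0.02 (MPP2), -0.86 (MPP3), -1.02 (MPP4), -1.15 (GMP), -0.72 (MEP) and -0.66 (CLP) with SEs of 0.60 to 0.71, and 0 of 8 were called. At an unadjusted p under 0.05, 0 of the 8 passed (all genes and fractions 32.6%), and DESeq2's Wald test called 0 (19.3%). A fit on the 4 libraries of each fraction called Cebpb lower in 4, MPP1 (-0.97 ± 0.06, SE, adjusted p = 1.27e-05), MPP3 (adjusted p = 0.00467), MPP4 (0.00213) and GMPs (0.00101), and not in MEPs (0.0246) or CLPs (0.0856). Over all genes and fractions 11.0% of the tests in these fits were called. A fit without Aged HSC replicate 1 and Young MPP2 replicate 1, chosen after the values were seen and with the lone libraries assumed to vary like the other groups, called Cebpb lower in 7 fractions. The changes ran from -0.66 ± 0.14 (CLP, adjusted p = 0.00228) to -1.15 ± 0.12 (GMP, adjusted p = 9.62e-07), and 12.3% of all such tests were called. HSCs were the exception at 0.26 ± 0.14 (adjusted p = 0.282). In that fit the age difference varied over the fractions (adjusted p = 1.46e-04; 33.9% of all genes), and HSCs lay 1.15 ± 0.14 (SE) above the mean of the other 7 (adjusted p = 8.66e-05; 8.66% of such tests over all genes).

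Which duplicate of aged HSCs and of young MPP2 gives the usual level of Cebpb is not known from these files. Without the other library of each pair the values turned. Without Aged HSC replicate 2 the HSC change was -2.81 (adjusted p = 0.00634), and, without Young MPP2 replicate 2, the MPP2 change was 2.20 (adjusted p = 0.0550). In the other 6 fractions the gap between young and aged values does not involve these libraries, but the calls there depend on the fit. Of the fits given above, only the one without both libraries called MEPs and CLPs. Macrophage markers were also lower in each of those 6 fractions (5 to 11 of 11), and their part in the Cebpb values was not tested. The fit without both libraries also moved other members, with Gfi1 in HSCs at -0.75 (adjusted p = 0.0561, no longer called) and Cebpa in MEPs at an adjusted p of 0.00583 (called lower).

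**Figure D4:**
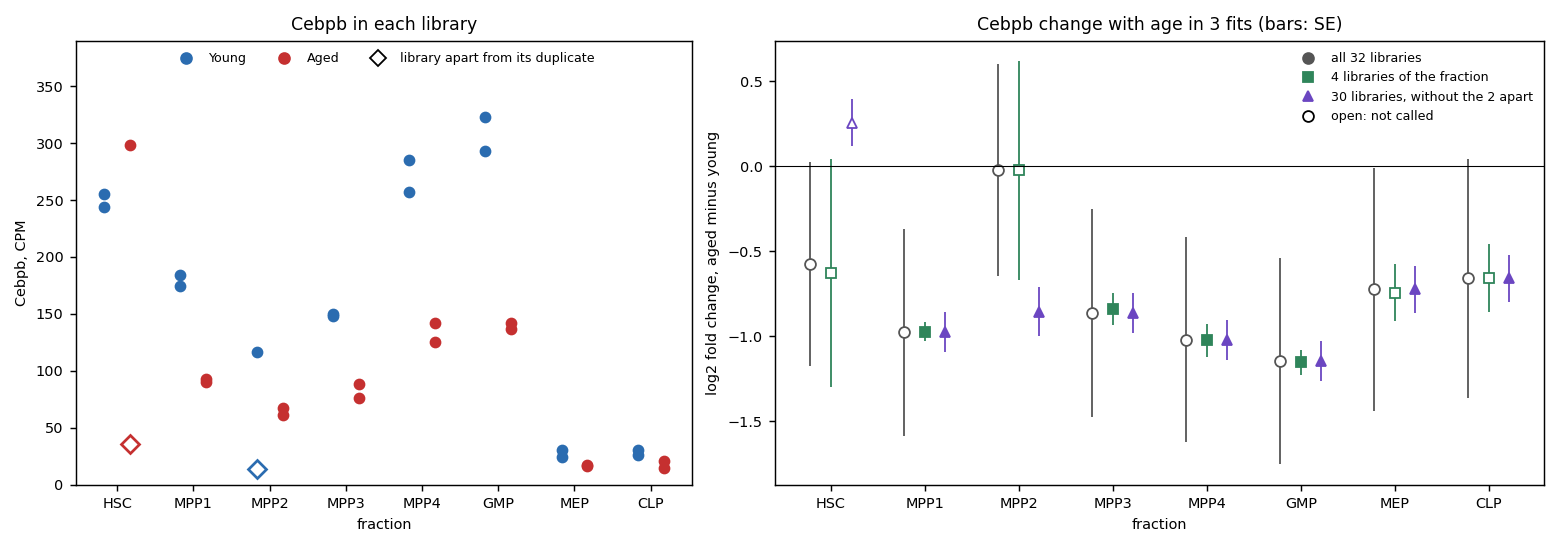
Left, Cebpb level (CPM) in each library by fraction and age, with open diamonds for the 2 libraries apart from their duplicates (35.8 CPM in Aged HSC replicate 1, 13.98 CPM in Young MPP2 replicate 1). Right, its log2 fold change (Aged minus Young) with SE in 3 fits, filled where called: 0 are called with all 32 libraries, 4 with the 4 libraries of each fraction and 7 without the 2 libraries.

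Partners, cofactors and relatives of the members (21 genes) were called most often in GMPs, 5 higher and 5 lower (all genes 18.9%). The members themselves were not called there. Egr1, an immediate early factor that acts with PU.1 in macrophages, stood at 3 and 7 counts in young and 771 and 932 in aged GMPs (log2 fold change 7.72, adjusted p = 1.62e-14) and moved the opposite way in CLPs, from 234 to 30.3 CPM (-2.95, adjusted p = 9.88e-12). Jun, an AP-1 subunit and PU.1 coactivator, named here after its values were seen, was higher in aged GMPs (log2 fold change 4.35) and MEPs (2.63). Hdac2, a corepressor used by GFI1, was higher in aged MPP4 (0.36) and lower in aged GMPs (-0.35) and CLPs (-0.33). Spic, a PU.1 relative of red pulp and marrow macrophages, was lower in aged MPP3, MPP4, GMPs and MEPs, at 0 counts in both aged MEP libraries. The other fractions held 0 to 5 partners called in a direction, with 3 higher and 5 lower in MEPs (all genes 20.8%).

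Of 6 myeloid growth factor receptors, 2 were higher in GMPs (all genes 18.9%) and 2 in CLPs (10.4%), and 0 lower in either. In GMPs these were Csf3r (244 to 343 CPM, log2 fold change 0.49) and Il6ra, the interleukin 6 receptor (23.96 to 63.2 CPM, 1.40, adjusted p = 2.69e-06). In CLPs they were Csf2rb (0.92), the beta chain shared by the GM-CSF, IL-3 and IL-5 receptors, and Csf2rb2 (1.36), a related beta chain. Primary granule genes were higher for 4 of 8 in MPP4 (all genes 16.6%), led by Ctsg (10.99 to 63.8 CPM, log2 fold change 2.54, adjusted p = 1.06e-06), and for 3 in MPP1 (6.80%). Spi1, Cebpa and Gfi1 were not called in either fraction in the fit of all 32 libraries. A fit on the 4 MPP1 libraries called Spi1 and Gfi1 lower (adjusted p = 0.00184 and 0.00964).

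Of 8 factors of the opposing lineages, 3 were lower in MPP3 (all genes 13.9%) and 3 in CLPs (10.4%). In GMPs 2 were higher and 2 lower (18.9%). In MPP3 these were Ebf1 (at 0 in both aged libraries), Gata1 (8.97 to 2.91 CPM, log2 fold change -1.62) and Klf1 (10.3 to 1.51 CPM, -2.77), both erythroid regulators, beside the lower Irf8 and Cebpe, so factors of both lineages were lower in aged MPP3. In CLPs they were Gata2 and Ebf1, a B cell factor (121 to 63.98 CPM, -0.92, adjusted p = 0.00809), and Tcf3 (-0.43), while Irf8 rose. Ebf1 in MEPs had 12.8 CPM in young and no count in aged libraries. Of the remaining lists, megakaryocyte markers were higher for 5 of 7 in aged CLPs (67.6 and 60.1 against 120.2 and 239 CPM in sum) and for 2 in HSCs. They were lower for 4 of 7 in aged MPP3 (670.2 and 719 against 411 and 451 CPM) and for 2 each in MPP2, MPP4 and MEPs. T and NK cell markers were called for at most 2 in one direction in any fraction.

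The genes most like each member over the 16 group means (Pearson correlation of log2 CPM, all 16 points sharing libraries and a common scaling, given as a description) included Ckap4 and Myo1f for Spi1 (r = 0.987 and 0.984). For Gfi1 the nearest gene was Spi1 itself (r = 0.976), followed by Rin3 and Igfbp4. For Cebpa they were Tmem180, Ccl9 and Trim16 (r = 0.973 to 0.967), and for Cebpe Fcgr3, Igsf6 and Sgms2 (0.989 to 0.987), of which Fcgr3 encodes an antigen used to sort GMPs. Irf8 was nearest to Pld4, Cacna1d and Nucb2 (0.985 to 0.974), and Cebpd to Efhd2, B4galt7 and Krtcap2 (0.950 to 0.933). Cebpb had the loosest neighbours, Pctp, Vps18 and Tmem141 (0.877 to 0.871), and without the 2 discordant libraries they were Ninj1, Tnfrsf23 and H6pd (Ninj1 at 0.937). Of the 21 genes, 17 were named again with a prior count of 0.5 and 3 with Spearman's correlation. Among the members themselves, r was lowest between Cebpb and Irf8 (-0.04) and highest between Spi1 and Gfi1.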

How the data were processed

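RNA was measured in 32 libraries of sorted mouse marrow cells (8 fractions, 2 ages, 2 libraries per group). Per the paper's methods the authors amplified total RNA with a low-input kit (SMARTer Ultra Low Input), aligned single reads to mm10 with TopHat2 2.0.13 and Bowtie2 2.1.0, and deposited raw gene counts from StringTie, with no molecular identifiers and no stated use of strand. The tables of normalized values and of the authors' own comparisons (fold changes and p-values) were not used.

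The members and gene lists were chosen with earlier results of these data known. Counts were fitted with edgeR 4.0.16 (R 4.3.3, quasi-likelihood F-test, TMM factors 0.807 to 1.11, filterByExpr, 16 group means on all 32 libraries, 16 residual degrees of freedom). Two-sided p-values were adjusted (Benjamini-Hochberg) over the 14154 genes of each contrast. For levels, each pair of fractions was a contrast of its own, with no adjustment over pairs. The call level of 0.01 is that of the study. An error is the standard error of the log2 fold change, its size divided by the square root of F. The script was tested on simulated counts. Besides the members, up to 4 genes of each list are named by rank, those called in most fractions (ties by adjusted p). Mpo, Elane, Rag1, Rag2, C1qa, C1qb, Cd200r3, Gata2 and Jun were named outside this rule. For each member the 3 genes with the highest correlation (prior count 2) are named. A gene that these rules name but that is withheld is not reported here. Transcript lengths for levels per kb came from the longest coding transcript of GENCODE M21. Promoters were matched by symbol for 4 of 7 members. Within a fraction, same-numbered young and aged libraries did not deviate together (correlations -0.06 to 0.07), so the numbers do not pair the ages. Whether same-numbered libraries of different fractions share mice was not examined, and the fits took them as independent. Alternatives were DESeq2 1.42.0, its size factors, no filter, fits per fraction, GC and length offsets (98.9% of genes with a value), a replicate block, other call levels, leaving out each library, and, added after seeing the data, leaving out 2 libraries.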

Additional observations from a re-analysis of the deposited data

Results flagged for a closer look

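For 5 members the age difference varied over the 8 fractions by a test of the difference itself (edgeR, interaction of age and fraction with 7 degrees of freedom, Benjamini-Hochberg adjusted). Irf8 (adjusted p = 1.07e-09) was lower in aged MPP3 and MEPs and higher in aged MPP4 and CLPs. Spi1 (adjusted p = 5.25e-08) was called lower in MEPs alone, while some other fits called it in more fractions. Cebpd (adjusted p = 6.89e-06) was called higher in HSCs, Gfi1 (adjusted p = 4.49e-05) lower in HSCs and MEPs, and Cebpe (adjusted p = 1.97e-04) lower in MPP3 and CLPs. Over all genes 34.9% passed the same test. Apart from the gaps between duplicates given for Cebpb, groups of 2 libraries were not searched for outlying libraries.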

How the results depend on the processing

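Of the 10 called differences, 5 kept their direction and call under each of 14 alternatives (Cebpd in HSCs, Cebpe in MPP3, Irf8 in MPP3 and MEPs, Spi1 in MEPs), and 0 changed sign. The number of members called in HSCs went from 2 to 1 with fits on 4 libraries, with a change of at least 1 (log2) required, and without Aged HSC replicate 1 and Young MPP2 replicate 1, and was 1 to 2 on leaving out 1 library. In MPP1 it went from 0 to 3 by DESeq2's Wald test, with 4 libraries or at adjusted p under 0.05, to 2 with the replicate block (Spi1 and Cebpd), with GC and length offsets or with both, and to 1 without the 2 libraries. In MPP2 it was 1 by the Wald test and without the 2 libraries. In MPP4 it went from 1 to 2 with 4 libraries and without the 2 libraries and to 0 with a change of at least 1 required, or on leaving out any library (0 to 0). In GMPs it was 2 with 4 libraries and 1 without the 2 libraries or at adjusted p under 0.05, in MEPs 5 (from 3) without the 2 libraries, and in CLPs 0 (from 2) with 4 libraries, 1 with a change of at least 1 required and 1 to 2 on leaving out 1 library. The count in MPP3 and the 5 interactions stayed within 1.5 times. The block changed no other call.

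Among differences that were not called, these changed sign (log2 fold change). Spi1 in GMPs: -0.00818 without the filter, -0.00209 with 4 libraries, -0.14 with GC and length offsets and -0.14 with these and the block. Cebpa in MPP2: -0.0148 with DESeq2's size factors, -0.0326 without the filter, -0.0147 by the Wald test and -0.0577 without the 2 libraries. Cebpb was 0.26 in HSCs without the 2 libraries, and in MPP2 0.0760 with the replicate block and 0.00891 with the block and offsets. Cebpd in MPP3 was -0.0131 with size factors and -0.0128 by the Wald test. Irf8 in HSCs was 0.00562 with size factors, 0.00418 by the Wald test, 0.0234 with offsets, 0.0245 with offsets and block and 0.12 without the 2 libraries. Gfi1 in MPP2 was 0.0142 with offsets and 0.0151 with offsets and block. On leaving out 1 library, or those 2 together, the ranges were -0.0752 to 0.0593 (Spi1 in GMPs), -0.0384 to 0.73 and -0.0813 to 0.12 (Cebpa in HSCs and MPP2), -2.81 to 0.26 and -0.86 to 2.20 (Cebpb in HSCs and MPP2), -0.0832 to 0.22 and -0.0757 to 0.27 (Cebpd in MPP3 and CLPs), -0.42 to 0.77 (Cebpe in HSCs), -0.24 to 0.20 (Irf8 in HSCs) and -0.0366 to 0.0396 (Gfi1 in MPP2). The causes were not tested. Depth limits Cebpe, Gfi1 and Cebpa where groups hold under 50 counts.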
